A study of Homo sapiens with 30 samples.

Results

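Of 60675 genes in the count table, 36 genes of the response to low oxygen and of glycolysis were followed through 30 libraries of treated astrocytoma cells. They were taken by symbol from a list in 3 groups by role: 16 hypoxia targets, 5 genes of glucose uptake and glycolytic control, and 15 glycolytic enzymes. Each of the 36 was found under 1 gene ID, and all 36 were among the 17839 genes with enough counts to be tested. SW1783 is an established human astrocytoma line, grown here in Leibovitz's L-15, a medium that carries galactose in place of glucose and is made for culture in air. Cells were treated for 24 h and sequenced as bulk RNA.

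The treated groups were water extracts of 2 large herbal formulas, Palmul-tang and Sibjeondaebo-tang, each with 3 libraries at 20, 100 and 500 µg/mL, and 3 further extracts with 1 library at each of those doses: Samul-tang in water, and Poria Cocos and Atractylodis Rhizoma in ethanol. The reference was 0.1% DMSO, the vehicle, in 3 libraries, and all 16 groups were the same line at 24 h. Total counts ran from 22.57 M to 37.82 M per library. The labels do not state whether the libraries within a group are separate cultures; p-values therefore measure the spread between these libraries, which may be technical. All sample titles carry the label BatchC. The vehicle libraries carry a sample code that no treated library has, so in every comparison with vehicle the treatment and the handling behind that code cannot be told apart. Codes also differ in their first number between Samul-tang, the 2 formulas, and Poria Cocos with Atractylodis Rhizoma. Between these, the extract and any handling behind the codes cannot be told apart either. Comparisons between doses do not use the vehicle. Replicate 3 of Sibjeondaebo-tang at 500 µg/mL stood apart, with a chi-square per gene of 8.145 and 7.421 against the other libraries of its group and 2.636 between those. At 100 µg/mL of Sibjeondaebo-tang it was 6.679 between replicates 1 and 2, 4.158 between 1 and 3 and 3.765 between 2 and 3. In the remaining groups with 3 libraries it ran from 2.137 to 4.132. Of 12 astrocyte and glial markers, VIM, CD44, GJA1, SOX9, GLUL, SLC1A3 and NES were expressed, the last 5 at means of 249, 67.6, 52.1, 24.2 and 6.13 CPM (counts scaled to the library total), and SLC1A2 was low at 0.301 CPM. GFAP and S100B had at most 4 counts, AQP4 at most 3 and ALDH1L1 at most 2 in any library, so these 4 were close to absent. Of markers of other cell types, SNAP25 (neuron) had a mean of 22.8 CPM, PTPRC (immune) 10.7 and MBP (oligodendrocyte) 6.09. PECAM1 (endothelial), CD14 (immune) and RBFOX3 (neuron) were low, at 0.885, 0.272 and 0.198 CPM. CDH5 (endothelial), EPCAM and CDH1 (epithelial) and MOG (oligodendrocyte) had at most 10 counts in any library. In bulk RNA, fewer cells that use a gene and less RNA per cell cannot be told apart.

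As background, cells measure oxygen with prolyl hydroxylases, encoded by EGLN1 and EGLN3 among others, which mark the alpha subunits of hypoxia-inducible factor (HIF) for destruction through the VHL protein. When oxygen or the activity of these enzymes is low, HIF-1 alpha (HIF1A) or HIF-2 alpha (EPAS1) joins ARNT and binds hypoxia response elements, whose core is ACGTG or GCGTG. The targets serve mitophagy, collagen modification, vessel growth and pH balance, and include glucose transporters and nearly the whole chain of glycolytic enzymes. The enzymes are also transcribed at high levels without hypoxia, so the more hypoxia-specific targets and the enzymes are described apart.

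The promoters below are shown because their genes were lower at 500 than at 20 µg/mL in both formulas and the letters ACGTG occur in them. Each is the 250 bases before a RefSeq transcription start on GRCh38.p14, 5′ to 3′ on the gene's strand, with ACGTG on either strand in capitals. BNIP3 lies at chr10:131981924-131982173 on the minus strand, P4HA1 at chr10:73096867-73097116 on the minus strand, PFKFB3 at chr10:6202682-6202931 on the plus strand, which is 1 of its 2 starts in the table, and PGK1 at chrX:78103998-78104247 on the plus strand.
BNIP3: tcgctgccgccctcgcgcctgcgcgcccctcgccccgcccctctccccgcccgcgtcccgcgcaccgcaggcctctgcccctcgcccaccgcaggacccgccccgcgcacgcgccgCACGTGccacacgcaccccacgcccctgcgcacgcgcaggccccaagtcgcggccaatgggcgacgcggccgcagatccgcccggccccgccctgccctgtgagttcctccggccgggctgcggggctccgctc
P4HA1: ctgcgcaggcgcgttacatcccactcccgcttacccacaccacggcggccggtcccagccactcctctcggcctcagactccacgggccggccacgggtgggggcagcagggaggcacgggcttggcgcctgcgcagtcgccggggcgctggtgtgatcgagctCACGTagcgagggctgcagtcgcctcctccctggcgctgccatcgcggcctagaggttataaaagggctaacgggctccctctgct
PFKFB3: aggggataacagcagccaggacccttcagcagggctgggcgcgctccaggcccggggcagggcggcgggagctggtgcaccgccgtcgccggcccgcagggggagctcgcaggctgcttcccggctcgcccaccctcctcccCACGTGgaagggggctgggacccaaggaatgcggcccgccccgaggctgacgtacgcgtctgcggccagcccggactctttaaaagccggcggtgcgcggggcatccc
PGK1: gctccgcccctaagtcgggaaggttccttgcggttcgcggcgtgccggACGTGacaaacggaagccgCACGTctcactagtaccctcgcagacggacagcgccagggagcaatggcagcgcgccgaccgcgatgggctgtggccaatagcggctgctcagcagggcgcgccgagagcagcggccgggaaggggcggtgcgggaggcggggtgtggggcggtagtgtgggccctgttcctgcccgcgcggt
In BNIP3 and in PFKFB3 the letters on both strands overlap in the palindrome CACGTG, which starts 134 and 108 bases before the transcription start. In P4HA1 they stand on the opposite strand 86 bases before the start, and in PGK1 on the opposite strand 183 bases and on the gene's strand 202 bases before the start. The windows of KDM3A and PGF, the other genes of that set in the table, hold no ACGTG. Each KDM3A window and 1 PGF window hold GCGTG. Over the set, 4 of 9 windows (44.4%) hold ACGTG, a share close to that of all members, and 6 of 9 (66.7%) hold GCGTG. Over all members, 32 genes had a promoter in the table, and 23 of their 52 windows (44.2%) hold ACGTG on either strand, against 6501 of 35116 windows of the same length in the whole table (18.5%). GCGTG was in 20 of 52 members' windows (38.5%) and in 32.2% of all windows. The members' windows also had more G and C, with a median of 69.0%, and 71.2% in the set, against 58.0% over all windows. The part of base composition in the letter counts was not tested. A match of letters is a description of the window and shows no binding.

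Between the highest and the lowest dose, 5 hypoxia targets fell in both formulas and VEGFA rose in both. In Palmul-tang, 7 of 16 hypoxia targets were lower at 500 than at 20 µg/mL and 1 was higher. Calls here and below are at an adjusted p of 0.05 in edgeR's quasi-likelihood test, adjusted over all tested genes by the Benjamini-Hochberg method. In Sibjeondaebo-tang 5 were lower and 1 was higher. Among all tested genes 5.30% were called in Palmul-tang, 2.47% lower and 2.83% higher, and 6.24% in Sibjeondaebo-tang, 2.79% lower and 3.45% higher. The median log2 fold change of the 16 hypoxia targets was -0.105 in Palmul-tang and -0.128 in Sibjeondaebo-tang, beside medians within 0.001 of 0 over all tested genes. Over the 36 members, 10 were lower and 1 higher in Palmul-tang, and 7 were lower and 1 higher in Sibjeondaebo-tang. All 7 that were lower in Sibjeondaebo-tang (7 of 7) were among the 10 of Palmul-tang (7 of 10): BNIP3, BNIP3L, KDM3A, P4HA1, PGF, PFKFB3 and PGK1. How many of all tested genes were called the same way in both formulas was not counted. The overlap is thus not shown to be particular to these members. The Sibjeondaebo-tang count rested in part on single libraries: 5 members were called without replicate 1 at 500 or without replicate 2 at 20 µg/mL, and 8 without replicate 3 at 500, the library that stood apart.

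**Figure D1:**
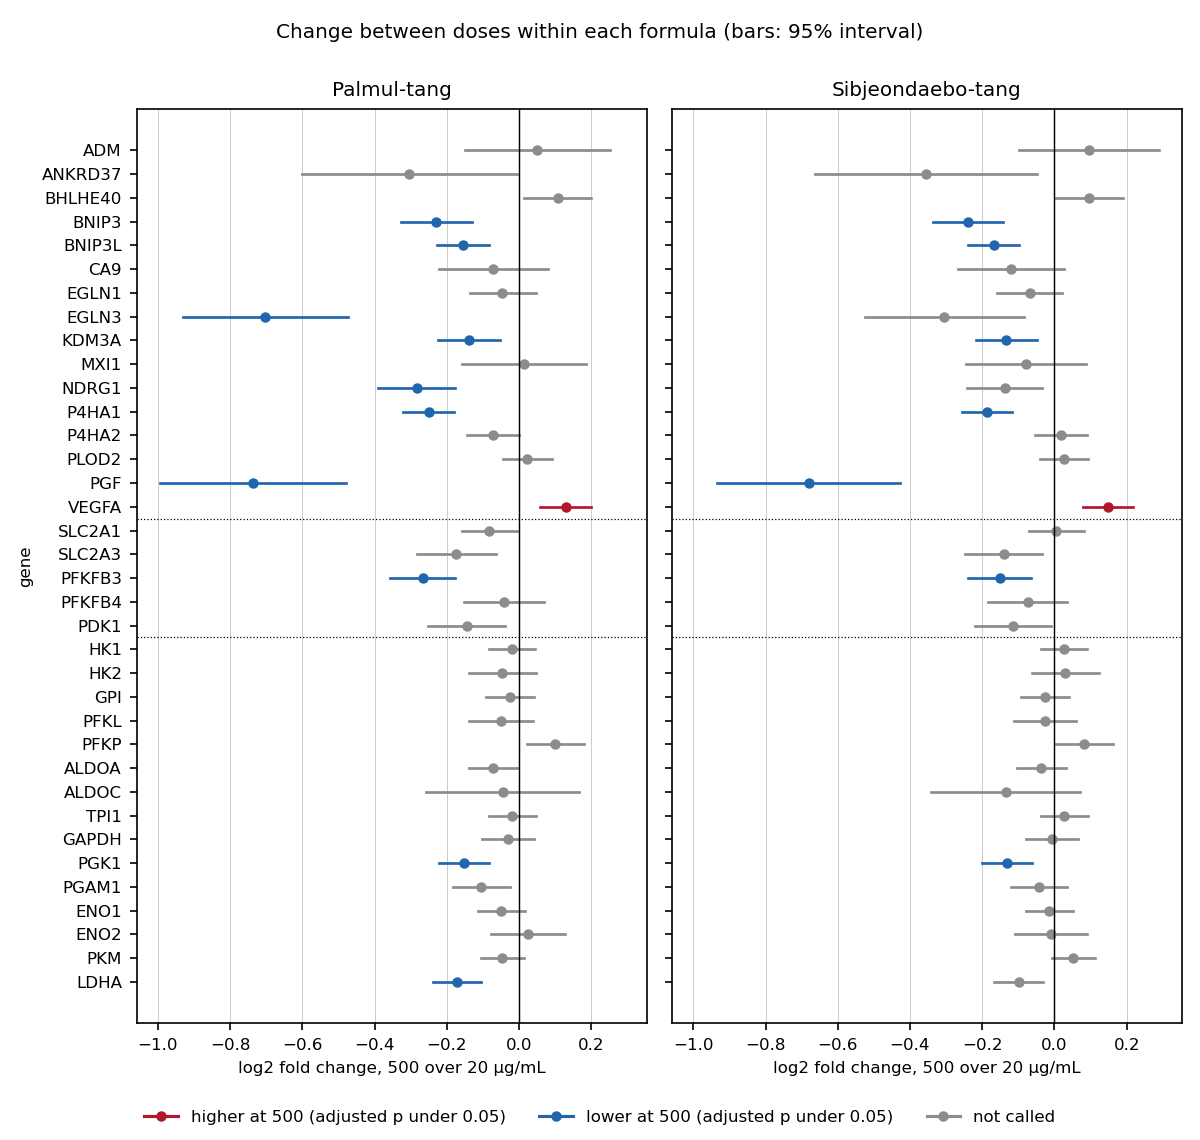
Log2 fold change of each member at 500 over 20 µg/mL (x axis) in Palmul-tang (left) and Sibjeondaebo-tang (right), with points for estimates, bars for 95% intervals, dotted lines between the 3 role lists, and colour for calls at an adjusted p of 0.05. PGF lies farthest to the left of the called genes in both panels, at -0.74 and -0.68, most enzymes lie near 0, and VEGFA is the called gene to the right of 0.

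BNIP3 and BNIP3L encode mitochondrial outer-membrane receptors of mitophagy. In GENCODE 29 on GRCh38, which gives the gene positions here and below, BNIP3 (ENSG00000176171) spans chr10:131966455-131982013, minus strand. It stood at 118, 126 and 118 CPM (with TMM scaling) in the 3 vehicle libraries. In Palmul-tang it was at 116, 119 and 115 CPM at 20 µg/mL, 111, 111 and 117 CPM at 100 and 98.9, 97.9 and 101 CPM at 500. In Sibjeondaebo-tang it was at 108, 129 and 113 CPM at 20, 108, 123 and 114 CPM at 100 and 98.5, 100.1 and 98.05 CPM at 500. The 6 libraries at 500 µg/mL lay below all other libraries of both formulas and of vehicle, and the step lay between 100 and 500. The log2 fold change of BNIP3 at 500 over 20 was -0.23 (95% interval -0.33 to -0.13, adjusted p = 0.00221) in Palmul-tang and -0.24 (95% interval -0.34 to -0.14, adjusted p = 0.001) in Sibjeondaebo-tang.

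BNIP3L fell by less, with low spread. Its vehicle libraries had 126, 130.0 and 127 CPM. Palmul-tang libraries had 124, 126 and 129 CPM at 20 µg/mL, 125, 128 and 123 CPM at 100 and 114, 114 and 112 CPM at 500. In Sibjeondaebo-tang the values were 124, 129.7 and 127 CPM at 20, 128, 129 and 126 CPM at 100 and 118, 115 and 107 CPM at 500. At 20 and 100 µg/mL BNIP3L stayed in or near the vehicle range, and at 500 all 6 libraries were under it. The log2 change at 500 over 20 was -0.15 (95% interval -0.23 to -0.08, adjusted p = 0.00436) in Palmul-tang and -0.17 (95% interval -0.24 to -0.10, adjusted p = 0.00121) in Sibjeondaebo-tang. The Sibjeondaebo-tang call of BNIP3L was lost when its 500 and 20 libraries were fitted alone (adjusted p = 0.0568).

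The collagen-modifying enzymes among the members behaved unequally. P4HA1 (ENSG00000122884, chr10:73007217-73096974, minus strand), a catalytic subunit of collagen prolyl 4-hydroxylase, had 238, 246 and 239.9 CPM in vehicle. Under Palmul-tang the values were 262, 255 and 261 CPM at 20 µg/mL, 247, 249 and 259 CPM at 100 and 216, 214 and 224 CPM at 500. Sibjeondaebo-tang libraries had 247, 263 and 251 CPM at 20, 263, 259 and 256 CPM at 100 and 235, 219.9 and 214 CPM at 500. P4HA1 thus stood above every vehicle library in all 12 libraries at 20 and 100 µg/mL and below every vehicle library in all 6 at 500. Its log2 change at 500 over 20 was -0.25 (95% interval -0.32 to -0.18, adjusted p = 3.77e-06) in Palmul-tang and -0.19 (95% interval -0.26 to -0.12, adjusted p = 0.000281) in Sibjeondaebo-tang. P4HA2, the other catalytic subunit, and PLOD2, a lysyl hydroxylase, were not called between these doses, with log2 changes of -0.07 (95% interval -0.14 to 0.00) and 0.02 (95% interval -0.04 to 0.09) in Palmul-tang and 0.02 (95% interval -0.05 to 0.09) and 0.03 (95% interval -0.04 to 0.09) in Sibjeondaebo-tang.

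PGF and VEGFA, growth factors of the same family that act on vessels, moved in opposite directions. PGF (ENSG00000119630, chr14:74941834-74955784, minus strand), placental growth factor, was a low gene, with 49 to 129 counts per library. It had 4.03, 4.38 and 4.56 CPM in vehicle. With Palmul-tang it stood at 3.73, 3.497 and 3.58 CPM at 20 µg/mL, 2.97, 3.01 and 3.31 CPM at 100 and 1.86, 2.34 and 2.27 CPM at 500. Under Sibjeondaebo-tang the values were 3.07, 3.87 and 3.44 CPM at 20, 3.02, 3.40 and 3.16 CPM at 100 and 2.17, 2.19 and 2.10 CPM at 500. Every library at 500 lay below every library at 100 and 20 of the same formula. The log2 change at 500 over 20 was -0.74 (95% interval -0.99 to -0.48, adjusted p = 0.000128) in Palmul-tang and -0.68 (95% interval -0.94 to -0.43, adjusted p = 0.000245) in Sibjeondaebo-tang.

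VEGFA (ENSG00000112715, chr6:43770184-43786487, plus strand), the main vascular growth factor and a standard hypoxia marker, was far more abundant, with 8393 to 13618 counts per library, and was the only member called higher between these doses. Its vehicle libraries had 368, 383 and 361 CPM. In Palmul-tang it had 358, 341 and 359 CPM at 20 µg/mL, 362, 370.3 and 379 CPM at 100 and 380.3, 374 and 403 CPM at 500. With Sibjeondaebo-tang it stood at 363, 347 and 352 CPM at 20, 372, 359 and 378 CPM at 100 and 383, 399 and 394 CPM at 500. The libraries at 500 lay above those at 20 in both formulas but overlapped the vehicle range in part. The log2 change at 500 over 20 was 0.13 (95% interval 0.06 to 0.20, adjusted p = 0.0184) in Palmul-tang and 0.15 (95% interval 0.08 to 0.22, adjusted p = 0.00455) in Sibjeondaebo-tang. The Palmul-tang call was lost without replicate 2 at 20 µg/mL (adjusted p = 0.14) or without replicate 3 at 500 µg/mL (adjusted p = 0.176), and the Sibjeondaebo-tang call when the compared groups were fitted alone (adjusted p = 0.0578).

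KDM3A, a histone demethylase, was called lower at 500 than at 20 in both formulas close to the threshold. Its vehicle libraries had 35.5, 35.4 and 35.5 CPM. Palmul-tang libraries had 40.1, 40.4 and 40.2 CPM at 20 µg/mL, 40.1, 41.8 and 40.9 CPM at 100 and 36.01, 35.7 and 37.8 CPM at 500. In Sibjeondaebo-tang it had 40.6, 42.2 and 41.2 CPM at 20, 41.8, 40.0 and 38.7 CPM at 100 and 38.2, 37.8 and 37.0 CPM at 500. All 27 treated libraries of the series, at 35.7 to 43.7 CPM, were above the 3 vehicle libraries, so the fall at 500 was towards the vehicle level. The log2 change was -0.14 (95% interval -0.22 to -0.05, adjusted p = 0.0493) in Palmul-tang and -0.13 (95% interval -0.22 to -0.05, adjusted p = 0.0479) in Sibjeondaebo-tang. The Palmul-tang call was lost without any 1 of replicates 1 and 2 at 500 and replicates 1, 2 and 3 at 20 µg/mL (adjusted p from 0.12 to 0.204), and the Sibjeondaebo-tang call without any 1 of its 6 compared libraries (adjusted p from 0.0596 to 0.165).

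EGLN3, an oxygen-sensing prolyl hydroxylase that HIF itself induces, and NDRG1, a stress-responsive cytosolic protein, were called lower in Palmul-tang. EGLN3 had 5.66, 5.28 and 6.78 CPM at 20 µg/mL of Palmul-tang, 4.74, 4.48 and 4.88 CPM at 100 and 3.07, 4.17 and 3.64 CPM at 500, a log2 change at 500 over 20 of -0.70 (95% interval -0.93 to -0.47, adjusted p = 3.96e-05). Sibjeondaebo-tang libraries had 4.98, 5.64 and 5.34 CPM at 20, 5.00, 5.79 and 4.94 CPM at 100 and 4.07, 4.37 and 4.47 CPM at 500, with -0.30 (95% interval -0.53 to -0.09, adjusted p = 0.0961). NDRG1 changed by -0.28 (95% interval -0.39 to -0.18, adjusted p = 0.000337) in Palmul-tang and by -0.14 (95% interval -0.24 to -0.03, adjusted p = 0.115) in Sibjeondaebo-tang. The difference between the formulas' changes was 0.40 (95% interval 0.08 to 0.72) for EGLN3 and 0.15 (95% interval 0.00 to 0.29) for NDRG1, Sibjeondaebo-tang minus Palmul-tang on the log2 scale, and neither passed adjustment (adjusted p = 1 each). The 8 remaining hypoxia targets were not called in either formula: ADM (adrenomedullin, a vasodilator peptide), ANKRD37, BHLHE40 and MXI1 (transcriptional repressors), CA9 (a membrane carbonic anhydrase), EGLN1, P4HA2 and PLOD2. Their log2 changes ran from -0.30 for ANKRD37 to 0.11 for BHLHE40 in Palmul-tang, and from -0.35 for ANKRD37 to 0.10 for BHLHE40 in Sibjeondaebo-tang.

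**Figure D2:**
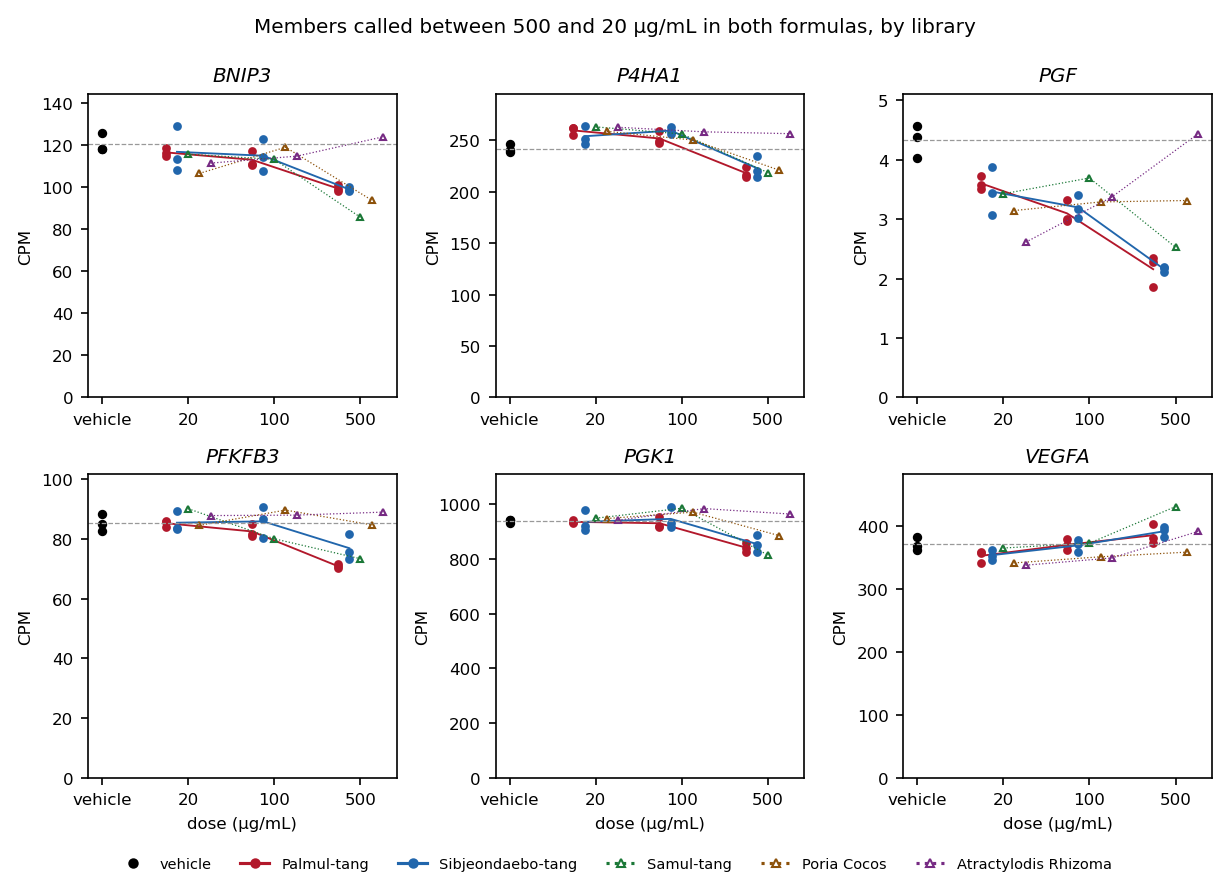
CPM (TMM-scaled, y axes from 0) of 6 members by dose in µg/mL, 1 point per library, with lines through the group means, filled circles for vehicle and the 2 formulas and open triangles for the extracts with 1 library per dose. Group means of BNIP3, P4HA1, PGF, PFKFB3 and PGK1 are lowest at 500 µg/mL of both formulas, and that of PGF falls at each dose. VEGFA is highest at 500, with 380.3, 374 and 403 CPM in Palmul-tang and 383, 399 and 394 CPM in Sibjeondaebo-tang.

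Of the 5 genes of uptake and control, PFKFB3 was lower at 500 than at 20 µg/mL in both formulas. PFKFB3 (ENSG00000170525, chr10:6144934-6254644, plus strand) makes fructose 2,6-bisphosphate, the activator of phosphofructokinase. It had 82.7, 85.1 and 88.5 CPM in vehicle. Under Palmul-tang the values were 84.1, 86.2 and 85.6 CPM at 20 µg/mL, 81.6, 81.0 and 85.0 CPM at 100 and 70.9, 71.5 and 70.2 CPM at 500. Under Sibjeondaebo-tang the values were 83.7, 89.3 and 83.3 CPM at 20, 80.2, 90.8 and 86.6 CPM at 100 and 73.4, 75.6 and 81.7 CPM at 500. At 20 µg/mL it was at the vehicle level, and at 500 all 6 libraries were below the lowest vehicle library. The log2 change at 500 over 20 was -0.27 (95% interval -0.36 to -0.18, adjusted p = 6.00e-05) in Palmul-tang and -0.15 (95% interval -0.24 to -0.06, adjusted p = 0.0261) in Sibjeondaebo-tang. In Sibjeondaebo-tang the call was lost without replicate 1 at 500 (adjusted p = 0.144), replicate 2 at 500 (adjusted p = 0.0806) or replicate 2 at 20 µg/mL (adjusted p = 0.16), and with the compared groups fitted alone (adjusted p = 0.117). The glucose transporters SLC2A1 and SLC2A3, PFKFB4 (the relative of PFKFB3) and PDK1 (the kinase that switches off pyruvate dehydrogenase) were not called; PDK1 was at -0.14 (95% interval -0.25 to -0.04) in Palmul-tang and -0.12 (95% interval -0.22 to -0.01) in Sibjeondaebo-tang.

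The glycolytic enzymes changed little between these doses. In Palmul-tang 2 of 15 were lower at 500 than at 20 µg/mL and none higher, and in Sibjeondaebo-tang 1 was lower and none higher, with medians of -0.05 and -0.015 (log2). PGK1 (ENSG00000102144, chrX:77910739-78129296, plus strand), phosphoglycerate kinase, was the enzyme called in both. It had 932, 943 and 943 CPM in vehicle. With Palmul-tang it stood at 932, 941 and 935 CPM at 20 µg/mL, 955, 921 and 917 CPM at 100 and 826, 859 and 841 CPM at 500. With Sibjeondaebo-tang it stood at 906, 979 and 922 CPM at 20, 932, 992 and 917 CPM at 100 and 825, 852 and 887 CPM at 500. As with PFKFB3, the level held near vehicle up to 100 µg/mL and lay below vehicle in all 6 libraries at 500. The log2 change at 500 over 20 was -0.15 (95% interval -0.22 to -0.08, adjusted p = 0.00329) in Palmul-tang and -0.13 (95% interval -0.20 to -0.06, adjusted p = 0.0124) in Sibjeondaebo-tang. The Sibjeondaebo-tang call was lost without replicate 1 at 500 (adjusted p = 0.0795) or replicate 2 at 20 µg/mL (adjusted p = 0.115), and with the compared groups fitted alone (adjusted p = 0.104).

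LDHA, the lactate dehydrogenase subunit that makes lactate from pyruvate, fell in Palmul-tang, with 2031, 1964 and 2049 CPM at 20 µg/mL, 2000.3, 1957 and 2045 CPM at 100 and 1775, 1816 and 1772 CPM at 500, a log2 change at 500 over 20 of -0.17 (95% interval -0.24 to -0.11, adjusted p = 0.000492). In Sibjeondaebo-tang it was at -0.10 (95% interval -0.17 to -0.03, adjusted p = 0.0647). The abundant middle enzymes stayed close to 0: GAPDH was at -0.03 (95% interval -0.10 to 0.04) in Palmul-tang and -0.01 (95% interval -0.08 to 0.06) in Sibjeondaebo-tang, and ENO1 at -0.05 (95% interval -0.11 to 0.02) and -0.01 (95% interval -0.08 to 0.05). These enzymes have processed pseudogenes of near-identical sequence, and RSEM, the counting tool named in the submitters' processing notes, divides reads that match several places by a likelihood estimate, so levels of GAPDH, PGK1, LDHA, ENO1, PKM, TPI1, ALDOA and PGAM1 carry that uncertainty.

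In comparisons of neighbouring doses, which were added with the dose values in view, calls lay between 100 and 500 µg/mL and not between 20 and 100. There 9 members were lower at 500 than at 100 in Palmul-tang and 7 in Sibjeondaebo-tang, and none was higher. Of all tested genes 2.49% were called in Palmul-tang, 1.15% lower and 1.35% higher, and 2.91% in Sibjeondaebo-tang, 1.24% lower and 1.67% higher. They were BNIP3, BNIP3L, P4HA1, PGF, PFKFB3, PGK1 and LDHA in both, and KDM3A and NDRG1 in Palmul-tang. EGLN3 and VEGFA, called at 500 over 20, were not called here: in Palmul-tang EGLN3 was at -0.37 for 500 over 100 and -0.33 for 100 over 20, and VEGFA at 0.06 and 0.07. LDHA was lower in both formulas, at -0.16 (adjusted p = 0.00202) in Palmul-tang and -0.14 (adjusted p = 0.00864) in Sibjeondaebo-tang, where the call was lost without replicate 1 at 100 µg/mL (adjusted p = 0.087) and with the compared groups fitted alone (adjusted p = 0.121). Between 100 and 20 µg/mL 0 members were called in either formula by edgeR, where 0.163% of all tested genes were called in Palmul-tang and 0.207% in Sibjeondaebo-tang (0.0168% and 0.0224% lower); DESeq2's Wald test also called 0 members. At an unadjusted p under 0.05 there was 1 member in each formula, beside 779 of all 17839 genes in Palmul-tang and 963 in Sibjeondaebo-tang. Comparisons of 500 with 100 and with 20 share the 500 libraries. In Palmul-tang the BNIP3 call at 500 over 100 was lost without any 1 of its 6 libraries (adjusted p from 0.0604 to 0.196), and BNIP3L, KDM3A, PGF and PGK1 were each lost without 1 or more libraries. In Sibjeondaebo-tang BNIP3, PGF, PFKFB3 and PGK1 were each lost without 1 or more libraries, and BNIP3L, PFKFB3 and PGK1 with the compared groups alone (adjusted p = 0.0828, 0.223 and 0.127). PGF was lost in DESeq2's Wald test in both (adjusted p = 0.168 in Palmul-tang and 0.075 in Sibjeondaebo-tang). The counts moved with single libraries: in Palmul-tang 5 members were called without replicate 1 at 500 or without replicate 1 or 2 at 100, and in Sibjeondaebo-tang 3 without replicate 2 at 100 µg/mL.

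Against vehicle, most enzymes were lower at 500 µg/mL in both formulas, and 7 or 8 of the 15 were lower already at 20. At 500 µg/mL 11 of 15 enzymes were lower in Palmul-tang and 9 in Sibjeondaebo-tang, with none higher, where 14.9% and 13.3% of all tested genes were called lower. At 20 µg/mL 7 were already lower in Palmul-tang and 8 in Sibjeondaebo-tang, where 13.3% and 13.3% of all genes were. In Sibjeondaebo-tang the PGAM1 call was lost without vehicle replicate 2 or 3 or replicate 1 at 20 (adjusted p 0.0585 to 0.107). LDHA was higher in Palmul-tang, a call lost without vehicle replicate 2 or 3 or without replicate 1 or 3 at 20 (adjusted p from 0.0544 to 0.0844). At 100 µg/mL 8 were lower and 1 higher in Palmul-tang and 7 lower and 2 higher in Sibjeondaebo-tang, where 12.8% and 13.3% of all genes were lower and 10.2% and 11.3% higher. The higher enzymes were LDHA in Palmul-tang and HK2 and LDHA in Sibjeondaebo-tang. All lost their call without 1 or more libraries, as did TPI1 in both formulas and ENO1 in Sibjeondaebo-tang. Over the 36 members, leaving out 1 library gave 14 to 17 calls at 100 of Sibjeondaebo-tang, against 19 with all. The median log2 fold change of the 15 enzymes was -0.158 in Palmul-tang and -0.134 in Sibjeondaebo-tang at 500 µg/mL and -0.104 and -0.117 at 20, with medians over all tested genes within 0.006 of 0. All of these comparisons share the same 3 vehicle libraries, which differ from the treated ones in their sample code as well, so the part of handling in them cannot be told apart from that of the extracts. Over the 36 members, 20 were lower and 2 higher than vehicle at 500 in Palmul-tang, and 19 and 2 in Sibjeondaebo-tang, where 12.9% and 11.7% of all genes were called higher. Without replicate 3 of Sibjeondaebo-tang at 500, the library that stood apart, 22 members were called there, against 21 with it.

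GAPDH, glyceraldehyde 3-phosphate dehydrogenase (ENSG00000111640), had 3485, 3680.1 and 3665 CPM at 500 µg/mL of Palmul-tang and 3560.1, 3720.1 and 3926 CPM at 500 of Sibjeondaebo-tang, against 4754, 4526 and 4689 CPM in vehicle. At 20 µg/mL it had 3627, 3615 and 3813 CPM in Palmul-tang and 3782, 3722 and 3763 CPM in Sibjeondaebo-tang. No treated library reached the lowest vehicle library, and the doses overlapped. The log2 change over vehicle was -0.37 (95% interval -0.44 to -0.29, adjusted p = 9.03e-10) at 500 of Palmul-tang and -0.32 (95% interval -0.39 to -0.25, adjusted p = 1.69e-08) at 500 of Sibjeondaebo-tang, beside -0.34 and -0.31 at 20. ALDOA, the main aldolase (ENSG00000149925), had 1345, 1354 and 1366 CPM at 500 of Palmul-tang and 1328, 1340.4 and 1485 CPM at 500 of Sibjeondaebo-tang, against 1712, 1679 and 1753 CPM in vehicle. At 20 it had 1421, 1435 and 1414 CPM in Palmul-tang and 1423, 1408 and 1427 CPM in Sibjeondaebo-tang. Its log2 change over vehicle was -0.34 (95% interval -0.41 to -0.27, adjusted p = 1.49e-09) at 500 of Palmul-tang and -0.31 (95% interval -0.38 to -0.24, adjusted p = 1.10e-08) at 500 of Sibjeondaebo-tang.

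GPI, glucose 6-phosphate isomerase (ENSG00000105220), had 353, 353 and 339.7 CPM at 500 µg/mL of Palmul-tang and 338, 340.3 and 365 CPM at 500 of Sibjeondaebo-tang, against 426, 416 and 436 CPM in vehicle. At 20 it had 351, 358 and 355 CPM in Palmul-tang and 351, 359.9 and 350.3 CPM in Sibjeondaebo-tang, all within the range of the 500 libraries of both formulas together. Its log2 change over vehicle was -0.29 (95% interval -0.36 to -0.23, adjusted p = 1.96e-08) at 500 of Palmul-tang and -0.29 (95% interval -0.36 to -0.23, adjusted p = 1.48e-08) at 500 of Sibjeondaebo-tang. ALDOA and GPI, like GAPDH, had all 27 treated libraries below all 3 vehicle libraries, and so had PFKP (platelet-type phosphofructokinase), TPI1 (triose phosphate isomerase), ENO1 (enolase) and PKM (pyruvate kinase). How many of all tested genes have treated and vehicle libraries fully apart was not counted. The pattern is thus not shown to be particular to these enzymes, nor to KDM3A, CA9 and SLC2A1. PFKP and TPI1 were near the threshold: at 500 of Palmul-tang PFKP was lost without vehicle replicate 2 (adjusted p = 0.164) or replicate 3 at 500 (adjusted p = 0.17), at 500 of Sibjeondaebo-tang PFKP was lost without vehicle replicate 2 (adjusted p = 0.0854) or replicate 2 at 500 (adjusted p = 0.0583), and TPI1 without replicate 2 at 500 (adjusted p = 0.0516). HK1 (hexokinase), PFKL, PGK1 and PGAM1 were the further enzymes lower at 500 of Palmul-tang, and PGK1 and PGAM1 at 500 of Sibjeondaebo-tang; the HK1 call was lost without vehicle replicate 1 or 2 or without replicate 2 or 3 at 500 (adjusted p from 0.0503 to 0.248) and with no filter on low counts (adjusted p = 0.155). HK2, ALDOC and ENO2, the less abundant isoforms, and LDHA were not called against vehicle at 500 in either formula.

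**Figure D3:**
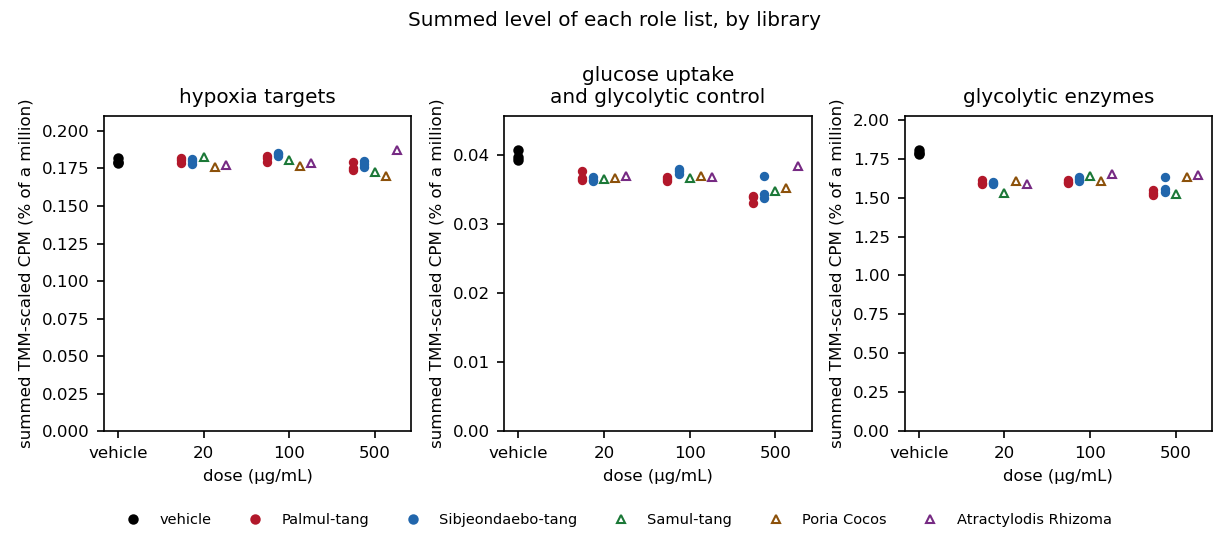
Summed TMM-scaled CPM of each role list, as a percent of the scaled total (y axes from 0), by dose in µg/mL with 1 point per library. The 15 enzymes sum to 1.78 to 1.81% in the vehicle libraries and to 1.51 to 1.65% in the treated ones, while the 16 hypoxia targets stay between 0.17 and 0.19% in all groups.

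The 15 enzymes together made up 1.53 ± 0.0153% of scaled counts at 500 µg/mL of Palmul-tang and 1.57 ± 0.0496% at 500 of Sibjeondaebo-tang, against 1.79 ± 0.0152% in vehicle (SD, n = 3 libraries each). At 20 µg/mL they made up 1.60 ± 0.0141% in Palmul-tang and 1.59 ± 0.00776% in Sibjeondaebo-tang. The 16 hypoxia targets summed to 0.176 ± 0.00272% at 500 of Palmul-tang and 0.178 ± 0.00184% at 500 of Sibjeondaebo-tang, against 0.180 ± 0.00188% in vehicle. The sum of this list thus moved less than that of the enzymes, with members called lower and higher in it. A sum is weighted to abundant genes, such as PLOD2 at a mean of 386 CPM against 3.19 CPM for PGF. Per gene, the median log2 change over vehicle at 500 of Palmul-tang was -0.129 for the hypoxia targets and -0.158 for the enzymes. In Sibjeondaebo-tang these medians were -0.059 and -0.134.

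In the hypoxia list of 16, 6 targets were lower and 1 higher than vehicle at 500 µg/mL of Palmul-tang, and 7 were lower and 1 higher at 500 of Sibjeondaebo-tang. Of all tested genes 14.9% and 13.3% were called lower there, and 12.9% and 11.7% higher. At 20 µg/mL the list was mixed, with 3 lower and 4 higher in Palmul-tang and 4 lower and 3 higher in Sibjeondaebo-tang. Among all tested genes 13.3% and 13.3% were lower at 20, and 10.5% and 10.5% higher. The 3 lower of 16 in Palmul-tang were thus near the share over all genes. NDRG1 had 39.3, 35.1 and 36.6 CPM at 500 of Palmul-tang and 41.6, 40.3 and 41.0 CPM at 500 of Sibjeondaebo-tang, against 53.2, 55.7 and 54.1 CPM in vehicle. At 20 it had 42.1, 46.5 and 46.6 CPM in Palmul-tang and 45.7, 44.3 and 45.3 CPM in Sibjeondaebo-tang, which already lay below vehicle. Its log2 change over vehicle was -0.55 (95% interval -0.66 to -0.45, adjusted p = 4.90e-10) at 500 of Palmul-tang and -0.41 (95% interval -0.51 to -0.30, adjusted p = 1.91e-07) at 500 of Sibjeondaebo-tang. PGF, with the values given above, changed by -0.999 (95% interval -1.25 to -0.74, adjusted p = 1.82e-07) at 500 of Palmul-tang and -1.002 (95% interval -1.25 to -0.75, adjusted p = 1.40e-07) at 500 of Sibjeondaebo-tang. CA9, a hypoxia marker of tumours, changed by -0.45 (95% interval -0.59 to -0.30, adjusted p = 2.64e-05) and -0.42 (95% interval -0.57 to -0.27, adjusted p = 5.93e-05), and all 27 treated libraries of the series, at 23.1 to 34.5 CPM, lay below the vehicle libraries at 36.4 to 39.8 CPM.

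PLOD2, the lysyl hydroxylase of collagen cross-links (ENSG00000152952), was the hypoxia target called higher than vehicle at 500. It had 395, 405 and 403 CPM at 500 µg/mL of Palmul-tang and 419, 404 and 376 CPM at 500 of Sibjeondaebo-tang, against 345, 345 and 353 CPM in vehicle. At 20 it had 396, 391 and 396 CPM in Palmul-tang and 393, 395 and 389.5 CPM in Sibjeondaebo-tang, so its level did not follow the dose. The log2 change over vehicle was 0.21 (95% interval 0.14 to 0.27, adjusted p = 1.12e-05) at 500 of Palmul-tang and 0.20 (95% interval 0.14 to 0.27, adjusted p = 1.64e-05) at 500 of Sibjeondaebo-tang. KDM3A and EGLN3 were higher than vehicle at 20 µg/mL and not called at 500: KDM3A was at 0.18 (adjusted p = 0.00177) at 20 of Palmul-tang and 0.22 (adjusted p = 0.000198) at 20 of Sibjeondaebo-tang, and EGLN3 at 0.49 (adjusted p = 0.00118) and 0.34 (adjusted p = 0.0244). At 20 of Sibjeondaebo-tang EGLN3 lost its call without any 1 vehicle library or without replicate 2 or 3 at 20, with adjusted p between 0.05 and 0.0968. PGF there lost its lower call without vehicle replicate 2 or 3 or replicate 1 or 3 at 20 (adjusted p 0.0858 to 0.192). That call was also lost in DESeq2's Wald test (adjusted p = 0.179) and with the compared groups alone (adjusted p = 0.0605). At 20 of Palmul-tang P4HA1 lost its higher call without replicate 1 or 3 of vehicle or of that dose (adjusted p 0.0778 to 0.119). At 500 of Sibjeondaebo-tang ANKRD37 and P4HA1 were called lower near the threshold: ANKRD37 was lost without vehicle replicate 2 or 3 or without replicate 1 or 2 at 500 (adjusted p from 0.094 to 0.153), and P4HA1 without vehicle replicate 2 or without replicate 2 or 3 at 500 (adjusted p from 0.059 to 0.0763).

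SLC2A1 (ENSG00000117394), the basal glucose transporter, was lower than vehicle at every dose of both formulas. It had 165, 171 and 174 CPM at 500 µg/mL of Palmul-tang and 169.9, 172 and 191 CPM at 500 of Sibjeondaebo-tang, against 225, 211 and 214 CPM in vehicle. At 20 it had 180.1, 182 and 178 CPM in Palmul-tang and 181, 175 and 174 CPM in Sibjeondaebo-tang, and all 27 treated libraries lay below vehicle. The log2 change over vehicle was -0.35 (95% interval -0.43 to -0.28, adjusted p = 7.27e-09) at 500 of Palmul-tang and -0.29 (95% interval -0.37 to -0.21, adjusted p = 3.11e-07) at 500 of Sibjeondaebo-tang. PFKFB4, the relative of PFKFB3 (ENSG00000114268), moved the other way, with 33.0, 31.6 and 30.7 CPM at 500 of Palmul-tang and 31.4, 30.3 and 31.7 CPM at 500 of Sibjeondaebo-tang, against 26.9, 25.6 and 26.2 CPM in vehicle. At 20 it had 33.1, 33.4 and 31.3 CPM in Palmul-tang and 33.2, 30.5 and 34.5 CPM in Sibjeondaebo-tang. Its log2 change over vehicle was 0.27 (95% interval 0.16 to 0.39, adjusted p = 0.000343) at 500 of Palmul-tang and 0.25 (95% interval 0.13 to 0.36, adjusted p = 0.00108) at 500 of Sibjeondaebo-tang. PFKFB3 and SLC2A3 were lower than vehicle at 500 in both formulas, at -0.27 (adjusted p = 1.52e-05) and -0.15 (adjusted p = 0.00899) for PFKFB3 and -0.21 (adjusted p = 0.0033) and -0.16 (adjusted p = 0.0268) for SLC2A3. In Sibjeondaebo-tang PFKFB3 was lost without vehicle replicate 3 (adjusted p = 0.0682) or replicate 1 at 500 (adjusted p = 0.0689), and SLC2A3 without vehicle replicate 2 (adjusted p = 0.113) or replicate 1 at 500 (adjusted p = 0.078).

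**Figure D4:**
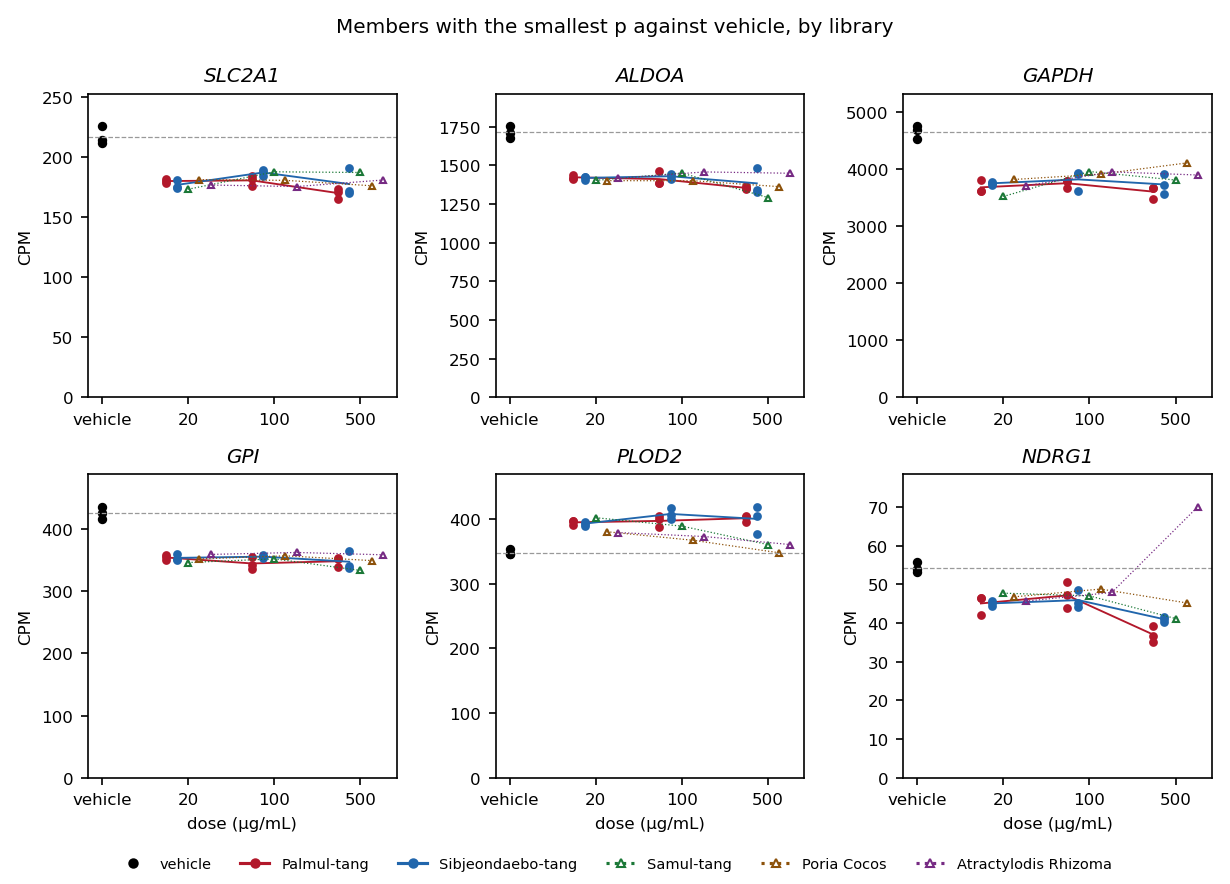
CPM (TMM-scaled, y axes from 0) of 6 members by dose in µg/mL, 1 point per library, lines through the group means and a dashed line at the vehicle mean. SLC2A1, ALDOA, GAPDH and GPI lie below vehicle and PLOD2 mostly above it at every dose, and NDRG1 shows 1 library above vehicle, Atractylodis Rhizoma at 500 µg/mL with 70.1 CPM.

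The formulas did not differ detectably from each other in these genes. With Sibjeondaebo-tang set against Palmul-tang at 500 µg/mL, 0 of 36 members and 0 of 17839 genes (0%) were called by the edgeR quasi-likelihood test, with 4 members and 863 genes at an unadjusted p under 0.05; DESeq2's Wald test called 0 members and 2 genes. The log2 difference, Sibjeondaebo-tang over Palmul-tang, was -0.01 (95% interval -0.11 to 0.09) for BNIP3, 0.03 (95% interval -0.04 to 0.10) for P4HA1, 0.00 (95% interval -0.28 to 0.27) for PGF, 0.05 (95% interval -0.02 to 0.12) for GAPDH and 0.15 (95% interval 0.04 to 0.25) for NDRG1. The interval was widest for PGF among these and leaves room for a difference in either direction. The 4 members at an unadjusted p under 0.05 were NDRG1, PFKFB3, EGLN3 and PKM, all higher in Sibjeondaebo-tang, with PFKFB3 at 0.12 (95% interval 0.03 to 0.21), EGLN3 at 0.25 (95% interval 0.01 to 0.48) and PKM at 0.07 (95% interval 0.01 to 0.13). The test of whether the 500 over 20 change differs between formulas called 0 members and 0 genes (0%), with 2 members and 716 genes at an unadjusted p under 0.05, and DESeq2's Wald test called 0 of both.

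The 3 extracts with 1 library per dose have no replicate check at a dose, and their values describe those libraries. In Samul-tang all 7 genes that were lower in both formulas had a lower CPM at 500 than at 20 µg/mL, with a median log2 ratio of -0.267, against 0.001 over 10282 expressed genes. BNIP3 had 116, 113 and 85.6 CPM at 20, 100 and 500 of Samul-tang, and VEGFA had 365, 373 and 431 CPM. Its 500 library thus lay with those of the formulas, for BNIP3 below and for VEGFA above all of them. In Poria Cocos 4 of the 7 were lower at 500, with a median of -0.026, and BNIP3 had 106, 119 and 93.8 CPM. In Atractylodis Rhizoma 1 of the 7 was lower at 500, with a median of 0.037. There BNIP3 had 111, 115 and 124 CPM, PGF 2.61, 3.37 and 4.43 CPM and NDRG1 45.7, 47.9 and 70.1 CPM, in the order 20, 100 and 500, so all 3 genes were highest at the top dose.

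With the 3 doses of an extract averaged and set against vehicle, the enzymes were again mostly lower. In Samul-tang 10 of 15 were lower and none higher, in Poria Cocos 9 and none, and in Atractylodis Rhizoma 7 lower and 1 higher, where 15.7%, 15.3% and 15.3% of all tested genes were called lower and 12.0%, 12.1% and 12.4% higher. GAPDH was at -0.31 (adjusted p = 4.58e-08) in Samul-tang, -0.24 (adjusted p = 3.92e-06) in Poria Cocos and -0.27 (adjusted p = 3.64e-07) in Atractylodis Rhizoma, and SLC2A1 at -0.25 (adjusted p = 4.37e-06), -0.28 (adjusted p = 9.32e-07) and -0.29 (adjusted p = 3.54e-07). NDRG1 was lower in Samul-tang at -0.26 (adjusted p = 0.000153) and in Poria Cocos at -0.21 (adjusted p = 0.00172), and was not called in Atractylodis Rhizoma at -0.02 (adjusted p = 0.817). These fits borrow their spread from the groups with 3 libraries and share the vehicle libraries with all comparisons above. Some enzyme calls were lost without 1 or more libraries. They were PFKL and PGAM1 in Samul-tang, PGAM1 in Poria Cocos, and ENO1, TPI1 and the higher LDHA in Atractylodis Rhizoma.

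**Figure D5:**
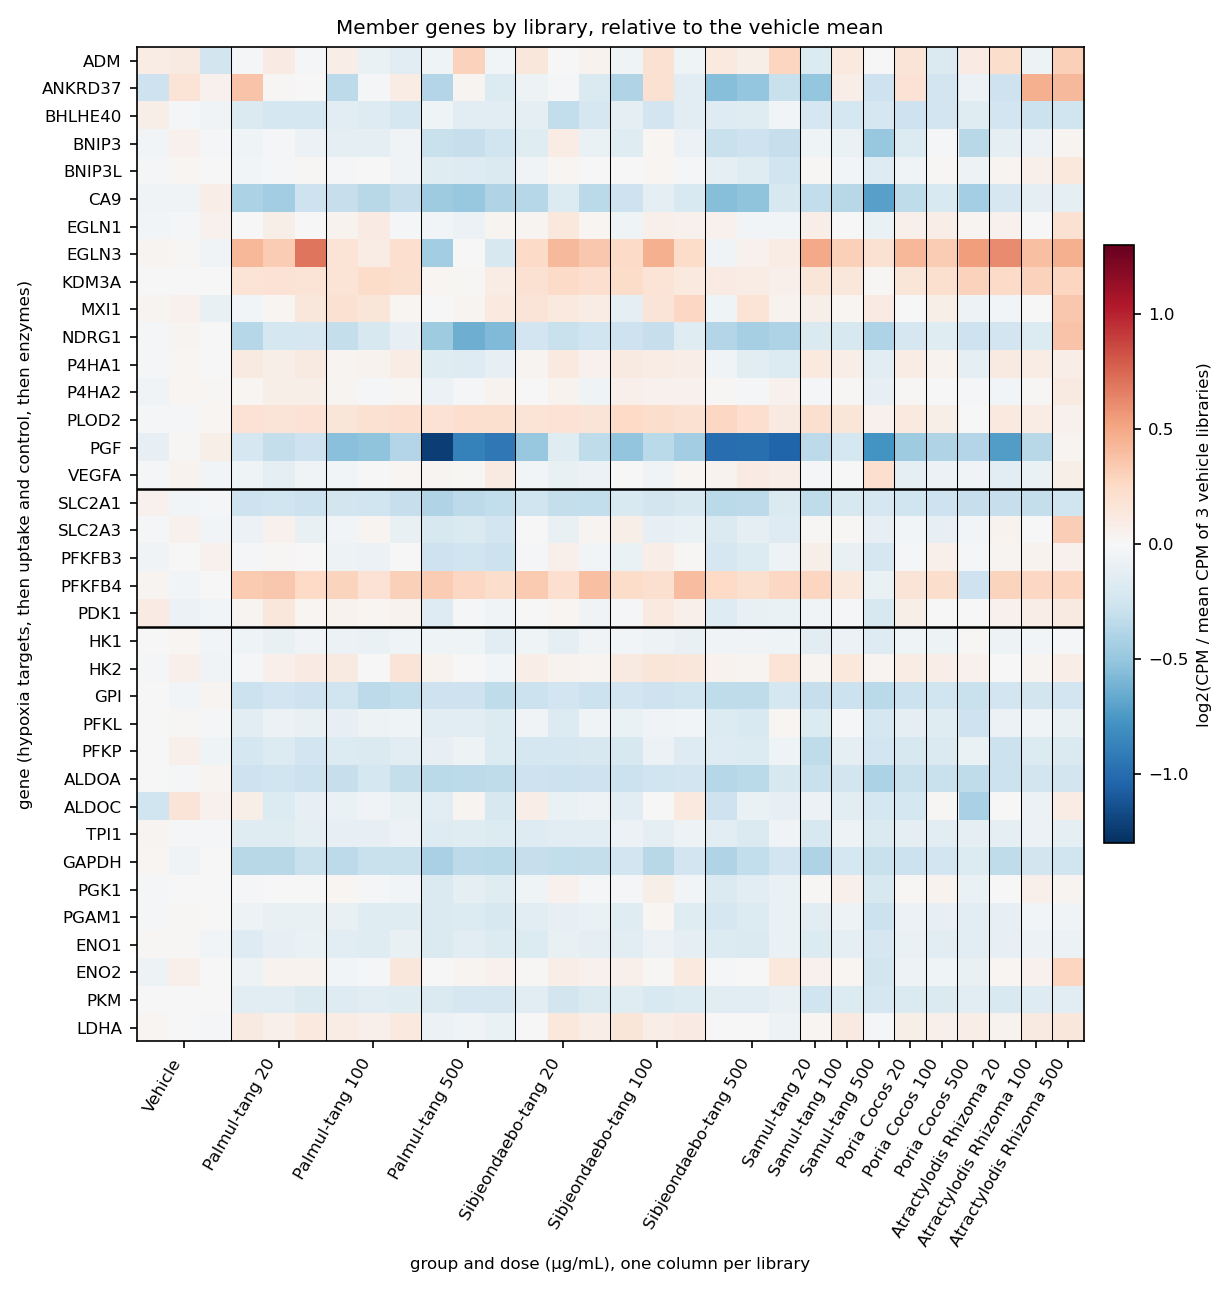
Log2 ratio of CPM to the mean of the 3 vehicle libraries (colour) for 36 members (rows, in the 3 role lists) in 30 libraries (columns, vehicle first and then each extract from 20 to 500 µg/mL). Rows such as GAPDH, ALDOA, GPI and SLC2A1 are blue in every treated column, PLOD2 and PFKFB4 are mostly red, and PGF is darkest at 500 µg/mL of both formulas.

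Of 11 genes that sense oxygen, make HIF or modulate it, which are not members, 10 were tested. At 500 over 20 µg/mL 1 was higher and none lower in Palmul-tang, where 5.30% of all tested genes were called, and 2 were higher and none lower in Sibjeondaebo-tang, where 6.24% were. Against vehicle at 500, 2 were higher and 2 lower in Palmul-tang (27.8% of all genes called), and 3 higher and 1 lower in Sibjeondaebo-tang (25.1%). HIF1A, the oxygen-labile subunit, had 1203, 1209 and 1169.5 CPM at 500 of Palmul-tang and 1247, 1248 and 1145 CPM at 500 of Sibjeondaebo-tang, against 1077, 1075 and 1062 CPM at 20 of Palmul-tang and 1093, 1081 and 1113 CPM at 20 of Sibjeondaebo-tang. Its log2 change at 500 over 20 was 0.16 (95% interval 0.09 to 0.23, adjusted p = 0.00302) in Palmul-tang and 0.15 (95% interval 0.08 to 0.22, adjusted p = 0.00451) in Sibjeondaebo-tang, so its transcript rose at the dose at which 5 or more of the 16 targets were lower. HIF-1 alpha is set mainly by the stability of the protein, which RNA does not measure. EPAS1 was higher in Sibjeondaebo-tang, at 0.17 (adjusted p = 0.00213), and at 0.11 (adjusted p = 0.0849) in Palmul-tang. Against vehicle at 500, VHL was higher at 0.18 (adjusted p = 0.00188) in Palmul-tang and 0.23 (adjusted p = 9.19e-05) in Sibjeondaebo-tang, and CREBBP, a coactivator of HIF, was lower at -0.17 (adjusted p = 0.00659) and -0.16 (adjusted p = 0.0103).

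Further genes known to be induced by hypoxia, which are not members, gave a mixed picture. Of 28, 6 were lower and 1 higher at 500 than at 20 µg/mL in Palmul-tang, and 1 lower and 3 higher in Sibjeondaebo-tang, with medians of -0.108 and -0.066 (log2). Over all tested genes 2.47% were lower and 2.83% higher in Palmul-tang, and 2.79% and 3.45% in Sibjeondaebo-tang. The 1 lower of 28 in Sibjeondaebo-tang was thus near its share over all genes. PPP1R3C, a glycogen-targeting subunit of protein phosphatase, was lower in both, at -0.41 (95% interval -0.53 to -0.29, adjusted p = 4.88e-06) in Palmul-tang and -0.31 (95% interval -0.43 to -0.19, adjusted p = 0.0003) in Sibjeondaebo-tang. STC2, stanniocalcin, which is induced by several stresses, was higher in both, at 0.17 (95% interval 0.11 to 0.24, adjusted p = 0.000247) and 0.35 (95% interval 0.29 to 0.42, adjusted p = 1.58e-10). Against vehicle at 500, ANGPTL4, a lipase inhibitor, was lower at -0.54 (adjusted p = 5.56e-07) and -0.54 (adjusted p = 4.11e-07), and ZNF395 at -0.20 (adjusted p = 0.00035) and -0.20 (adjusted p = 0.000448).

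Among 25 other genes of glucose and pyruvate handling, 24 were tested. At 500 over 20 µg/mL 4 were lower and none higher in Palmul-tang, and none lower and 1 higher in Sibjeondaebo-tang. Among all tested genes 2.47% were lower and 2.83% higher in Palmul-tang, and 2.79% and 3.45% in Sibjeondaebo-tang. Against vehicle at 500, 6 were lower and 1 higher in Palmul-tang and 6 lower and 3 higher in Sibjeondaebo-tang. There 14.9% of all tested genes were lower and 12.9% higher in Palmul-tang, and 13.3% and 11.7% in Sibjeondaebo-tang. GYS1, glycogen synthase, was lower at -0.26 (adjusted p = 3.88e-06) in Palmul-tang and -0.23 (adjusted p = 2.32e-05) in Sibjeondaebo-tang, and PYGB, glycogen phosphorylase, at -0.26 (adjusted p = 4.29e-06) and -0.23 (adjusted p = 3.67e-05). TKT, transketolase of the pentose phosphate pathway, was lower at -0.21 (adjusted p = 9.63e-06) and -0.12 (adjusted p = 0.00867). For scale, the inflammatory genes CXCL8, IL6 and ICAM1 were all higher at 500 than at 20 in both formulas, ICAM1 by 1.27 (adjusted p = 2.10e-21) in Palmul-tang and 1.37 (adjusted p = 1.46e-22) in Sibjeondaebo-tang on the log2 scale, so the shifts of the hypoxia and glycolysis genes were small beside them.

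Levels among the members, compared per length as CPM per kilobase of exon over all 30 libraries, spanned a wide range. GAPDH was highest at 1295 CPM per kilobase, followed by ENO1 at 503, ALDOA at 366.5, PKM at 344 and LDHA at 313. Of the hypoxia targets P4HA1 was highest at 79.3 CPM per kilobase, and EGLN3 at 0.682 and PGF at 0.535 were lowest. Between libraries, the ratio of the highest to the lowest CPM was 2.46 for PGF, 2.21 for EGLN3 and 2.03 for ANKRD37, all low genes, and 2.00 for NDRG1, while it was under 1.2 for the enzymes HK1, HK2, TPI1, ENO1 and LDHA. Several members overlap other genes on the opposite strand, among them VEGFA, P4HA1, SLC2A1, ALDOA, GAPDH and TPI1, and PGK1 shares exon bases with ATP7A on the same strand; the counting strand is not given in the sources used here, so reads of such pairs may be mixed.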

How the data were processed

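Gene expression in SW1783 cells was measured by bulk RNA-seq in 30 libraries of 16 groups, as the labels assign them. Per the submitters' processing notes, the tools were FastQC 0.11.9, Trim Galore 0.6.5, STAR 2.7.3a and RSEM 1.3.3 on hg38; the strand setting of the counting is not given in the sources used here. The deposited table holds RSEM expected counts per gene, as the authors made them, and 24% of the nonzero values are not whole, so they were rounded to whole numbers. Of its columns, 249 belong to other samples and were not used. Total counts of 22.57 M to 37.82 M per library limit the precision of low genes such as PGF.

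Counts were scaled by TMM and fitted with edgeR 4.0.16 in R 4.3.3 (limma 3.58.1), using filterByExpr by group, 1 mean per group over all 30 libraries and a robust quasi-likelihood test. P-values were adjusted by Benjamini-Hochberg over 17839 genes and called at 0.05, and intervals are 95%. CPM values are TMM-scaled. On data simulated from the Palmul-tang 500 and 20 groups, with 17712 genes tested, 30% of genes changed 1.12-fold, 82% at 1.25-fold, 98% at 1.5-fold and 100% at 2-fold were called, and 7 of 162 calls were false. Small changes were thus often missed in the simulation. It changed 200 genes of many levels, whereas 946 genes were called between these groups in the data. Its recovery therefore does not give the share of changes missed among the members. Alternatives were DESeq2 size factors, DESeq2 1.42.0's Wald test, no filter on low counts, the compared groups alone, the replicate number as a block and leaving out each library. The comparisons of 500 with 100 and of 100 with 20 were chosen after seeing the data.

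The members and gene lists were chosen with earlier results of these data known. Values in every library are given for members called the same way at 500 versus 20 in both formulas and for the 3 members of each list with the smallest p against vehicle at 500; EGLN3, LDHA, CA9 and the single-extract values were added after their values were seen. Up to 4 genes are named from each list of genes that are not members. Of the 4 inflammatory genes, 3 were matched by symbol. The series' design text also names positive controls, which were not analysed here. It gives 2% DMSO for the vehicle where the sample labels give 0.1%.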

Additional observations from a re-analysis of the deposited data

Results flagged for a closer look

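With 1 library and no replicate, Atractylodis Rhizoma at 500 µg/mL lay above all 3 vehicle libraries in 6 members for which all 3 libraries of Palmul-tang and all 3 of Sibjeondaebo-tang at the same dose lay below them. These differences between extracts were not tested, and how many of all tested genes show the same pattern was not counted. The sample codes of Atractylodis Rhizoma and of the formulas also differ. The single library had 139.9 CPM of BNIP3L and 70.15 CPM of NDRG1, against vehicle maxima of 130.0 and 55.7 CPM. It had 256.2 CPM of P4HA1, where the highest vehicle library had 246 CPM. SLC2A3, a glucose transporter, was at 43.81 CPM, against at most 36.4 CPM in vehicle. PFKFB3 was at 88.99 CPM and PGK1 at 964.4 CPM, against at most 88.5 and 943 CPM in vehicle, so for PFKFB3 the gap was the narrowest of the 6.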

How the results depend on the processing

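No member changed direction under any alternative run for its called comparisons. Fitting the compared groups alone called 3 members at 500 versus 20 and 3 at 500 versus 100 in Sibjeondaebo-tang, against 8 and 7 in the fit over all libraries; in Palmul-tang it called 15 and 9, against 11 and 9. The cause of the Sibjeondaebo-tang losses was not tested, and its 500 group includes replicate 3, which stood apart. Leaving out 1 library gave 9 to 11 members at 500 versus 20 in Palmul-tang (11 with all) and 5 to 8 in Sibjeondaebo-tang (8 with all), 5 to 7 and 3 to 10 at 500 versus 100 (9 and 7), and 20 to 23 and 17 to 22 at 500 versus vehicle (22 and 21). KDM3A at 500 versus 20 also lost its call with no filter on low counts (adjusted p = 0.143 in Palmul-tang and 0.181 in Sibjeondaebo-tang) and in DESeq2's Wald test (adjusted p = 0.0963 and 0.0794), and in Palmul-tang with DESeq2 size factors (adjusted p = 0.0515); the cause was not tested.

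Replicate numbers were not taken as pairs: the correlation of deviations over 63 pairs of libraries with the same number ran from -0.206 to 0.328, 22 of them were over 0.1, and the median was 0.0543, against -0.0265 for different numbers. With the number as a replicate block, 12 members were called at 500 versus 20 in Palmul-tang and 8 in Sibjeondaebo-tang, 23 and 23 at 500 versus vehicle, 9 and 9 at 500 versus 100, and 17, 16 and 14 in Samul-tang, Poria Cocos and Atractylodis Rhizoma against vehicle. Depth limits PGF, EGLN3 and ANKRD37 most; PGF had as few as 49 counts in a library.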
